A study of Mus musculus with 16 samples.

Results

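The 9 genes described here encode parts of the interleukin-6 (IL-6) family and interleukin-33 (IL-33) pathways. They were picked by name, with earlier results of these data known. They were the ligands Clcf1, Il6, Il11 and Lif, the receptor chains Osmr and Il6st, the feedback inhibitor Socs3, and IL-33 (Il33) with its receptor chain ST2 (Il1rl1). All 9 were found among the 55573 genes of a count table from the heart apex of 16 mice, which holds raw read counts from poly(A)-selected libraries read from a single end over 50 bases. The mice fell into 4 groups of 4 males, which the labels distinguish by vector (AAV9-GFP or AAV9-Cardinal) and by surgery (sham or TAC). All animals carried an adeno-associated virus of serotype 9 (AAV9) with the cTNT promoter, a troponin T promoter active in cardiomyocytes, which drove either GFP or the mouse long noncoding RNA Cardinal. Virus was given under the skin of wild-type pups on postnatal day 1. Transverse aortic constriction (TAC), in which a ligature around the aorta raises the pressure load on the left ventricle, or sham surgery was carried out at 25 to 30 g of body weight, and hearts were taken 4 weeks later. The age at surgery is not given in the sources used here. The promoter limits the model to Cardinal made in cardiomyocytes, whereas RNA was taken from the whole apex with all its cell types.

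IL-6 family cytokines signal by drawing the shared receptor chain gp130, the product of Il6st, into a complex with a receptor chain specific for the ligand. JAK kinases bound to gp130 then phosphorylate STAT3, which enters the nucleus and switches on targets that include Socs3, whose product binds gp130 and JAKs and shuts the signal off. IL-33 is a nuclear protein of fibroblasts and other stromal cells that is released on damage or stretch. It binds ST2 on mast cells, innate lymphoid cells and other cells, and signals through MyD88 to NF-kappaB. In the heart, gp130 ligands are known for their part in cardiomyocyte growth and survival under pressure overload.

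The promoters of 2 of these genes are printed here with their matches to STAT, AP-1 and NF-kappaB motifs. They are the 250 bases upstream of the RefSeq start site on GRCm38.p6, written from 5′ to 3′ on the strand of the gene, with the motif in capitals. The Il6 window (chr5:30012864-30013113, plus strand) is shown because it holds an AP-1 motif, TGAGTCA, 249 to 243 bases before the start and an NF-kappaB motif, GGATTTTCC, 43 to 35 bases before it. The Socs3 window (chr11:117969367-117969616, minus strand) is shown because it holds a STAT motif, TTCTTAGAA, 154 to 146 bases before the start.
Il6: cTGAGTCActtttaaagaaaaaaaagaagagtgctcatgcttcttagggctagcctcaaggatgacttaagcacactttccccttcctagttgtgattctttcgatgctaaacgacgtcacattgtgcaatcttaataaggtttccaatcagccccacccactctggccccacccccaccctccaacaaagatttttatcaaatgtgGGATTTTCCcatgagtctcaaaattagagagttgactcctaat
Socs3: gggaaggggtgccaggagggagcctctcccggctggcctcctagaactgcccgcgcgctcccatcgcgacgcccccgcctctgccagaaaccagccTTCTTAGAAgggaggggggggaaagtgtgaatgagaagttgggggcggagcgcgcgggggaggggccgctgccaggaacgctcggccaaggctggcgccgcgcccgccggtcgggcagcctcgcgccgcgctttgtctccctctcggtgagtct

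The motifs searched on both strands were TTCNNNGAA for STAT, TGA and TCA set 1 base apart for AP-1 and GGANTTTCC for NF-kappaB, and none of those found overlapped another. RefSeq held promoters for 8 of the 9 genes (not for Clcf1), with 11 start sites in all. The STAT motif occurred in 1 of the 11 windows, that of Socs3. The AP-1 motif occurred in 3, in Il6, Lif and the second start site of Il11, and the NF-kappaB motif in 1, that of Il6. Of 32851 promoters of the same length, 7.02% held the STAT motif, 6.75% the AP-1 motif and 1.07% the NF-kappaB motif. These matches describe letters only and were not tested for binding.

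Totals ranged from 16441997 to 21904589 counts per mouse. The lowest was AAV9-Cardinal sham replicate 4, and the other 3 mice of its group had between 21603910 and 21786630. Levels are given as CPM, counts relative to the library total after TMM scaling, which corrects that total for composition. A floor of 3 counts per library corresponded to 0.126 to 0.194 CPM and covers counting error only. Cardinal itself (Gm12295) lay between 26.2 and 40.0 CPM in AAV9-Cardinal sham and between 18.3 and 93.9 CPM in AAV9-Cardinal TAC hearts, against 3.42 to 5.92 and 3.58 to 7.24 CPM in the AAV9-GFP sham and TAC hearts, so no library went against its virus label. The 5 cardiomyocyte markers (Myh6, Tnnt2, Actn2, Ryr2 and Pln) summed to between 22520 and 33680 CPM in the 16 hearts.

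The 9 genes differed widely in level. Per kilobase of exon and averaged over the 16 hearts, Il6st stood highest at 11.6 CPM per kb, above 86.1% of the 16857 genes tested. Osmr followed at 2.02, Socs3 at 1.52 and Il33 at 1.080 CPM per kb. Clcf1 at 0.3065, Il1rl1 at 0.112, Lif at 0.0720, Il11 at 0.0420 and Il6 at 0.0363 CPM per kb made up the lower end. Over the 16 hearts the ranges of Osmr (1.49 to 2.62), Socs3 (0.593 to 2.67) and Il33 (0.651 to 1.58 CPM per kb) overlapped. Within each heart Osmr stood above Il33, and above Socs3 in all but AAV9-Cardinal sham replicate 4 (2.392 against 2.668 CPM per kb). The order of Socs3 and Il33 differed between hearts. At the lower end the ranges of Clcf1 (0.126 to 0.522), Il1rl1 (0.0720 to 0.170), Lif (0 to 0.110), Il11 (0 to 0.179) and Il6 (0 to 0.171 CPM per kb) likewise overlapped. Within single hearts Clcf1 stood above Il1rl1 in all but AAV9-GFP sham replicate 3. Il1rl1 stood above Lif in all but AAV9-Cardinal sham replicate 1. The order of Lif, Il11 and Il6 differed between hearts. Il33 stood above Clcf1 in every heart. Il6st overlapped with no other of the 9, its lowest heart being at 10.99 CPM per kb.

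**Figure D1:**
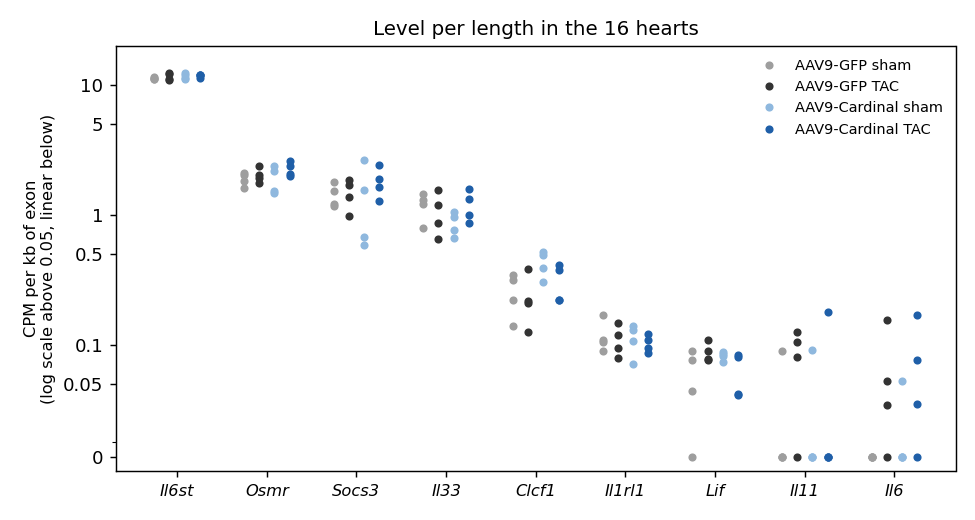
Level per length of the 9 genes in each of the 16 hearts, in CPM per kb of exon on an axis that is logarithmic above 0.05 and linear below, with the genes ordered by their mean and a point for each mouse coloured by group. Il6st lies alone above 10 CPM per kb, Osmr, Socs3 and Il33 overlap around 1 to 2, and Il11 and Il6 include hearts at 0.

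Of the 9 genes 6 could be tested, and none of these passed in any of the 6 comparisons. Il6st, Osmr, Socs3, Il33, Clcf1 and Il1rl1 passed the filter on low counts and were tested with edgeR's quasi-likelihood model of all 16 mice, with a threshold of 0.05 on the adjusted p over all 16857 genes. Il6, Il11 and Lif did not pass it. Beside this, 17.4% of all tested genes were called for TAC against sham surgery with AAV9-GFP (8.49% were higher in TAC hearts, 8.92% lower) and 6.48% in AAV9-Cardinal hearts (3.10% higher, 3.38% lower). Averaged over both vectors the share was 23.1% (11.3% higher, 11.8% lower). Between the vectors, 0.101% of genes were called in TAC hearts and 0.0119% in sham hearts, and 0.0119% for the difference in the TAC response. DESeq2 also called 0 of the 6. At an unadjusted p under 0.05 there were 0 of the 6 in every comparison but that of the vectors after sham surgery, where there was 1, Clcf1. Of all tested genes 29.9% had such a p after TAC with AAV9-GFP, 21.8% with AAV9-Cardinal and 34.9% averaged over both vectors. Between the vectors these shares were 15% in TAC hearts, 2.59% in sham hearts and 10.2% for the difference in the TAC response. In AAV9-GFP hearts the median absolute log2 fold change of the 6 was 0.102 after TAC, against 0.167 over all tested genes. In AAV9-Cardinal hearts it was 0.353 against 0.137, and averaged over both vectors 0.167 against 0.132. Such a median includes the error of each estimate. In AAV9-Cardinal hearts the SE of Clcf1, Il33, Il1rl1 and Socs3 lay between 0.263 and 0.372. The larger median thus does not show a larger change.

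**Figure D2:**
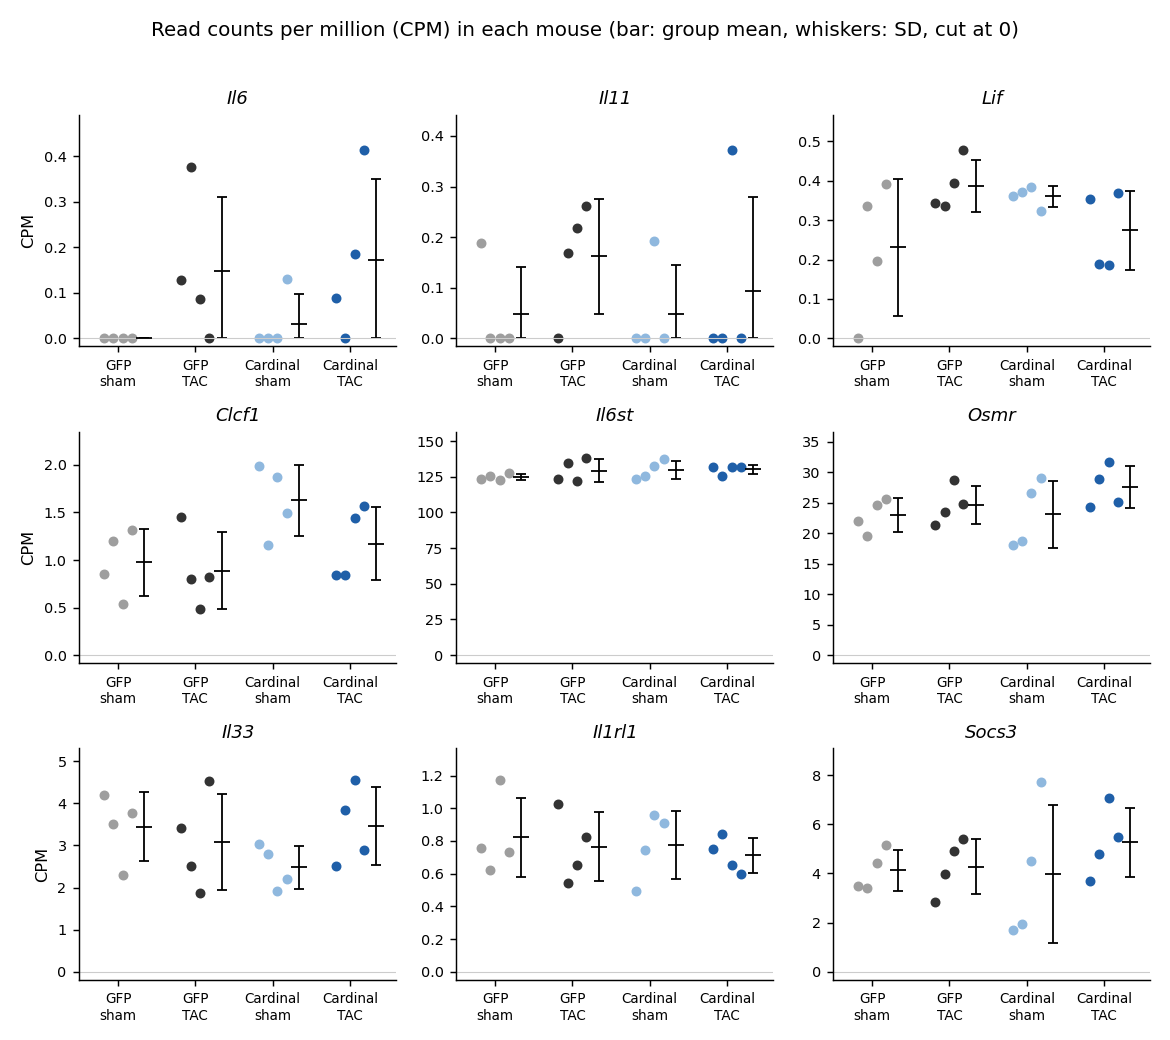
CPM of each of the 9 genes in each mouse, with a panel for each gene and a linear axis of its own, a point for each mouse, and the mean and SD of each group of 4 beside the points (whiskers cut at 0). Sham and TAC hearts overlap in every panel, Il6 is at 0 in all 4 AAV9-GFP sham hearts, and Il6st stays between 122 and 138 CPM.

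Gene positions are those of GENCODE M21 on GRCm38. The ligands were, with Il1rl1, the scarcest. Il6 (ENSMUSG00000025746, chr5:30013114-30019981, plus strand), the founding cytokine of the family, gathered 31 counts over all 16 hearts. It had 0 counts in all 4 AAV9-GFP sham hearts and 3, 9, 2 and 0 counts in AAV9-GFP TAC replicates 1, 3, 4 and 7. With AAV9-Cardinal it had 0, 0, 0 and 2 counts in sham replicates 1 to 4 and 2, 0, 4 and 9 counts in TAC replicates 1, 4, 5 and 6. Counts of 2 or more were thus seen in 3 of 4 TAC hearts with each virus and in 1 of the 8 sham hearts, but the sham and TAC hearts overlapped at 0. In AAV9-GFP sham hearts the 3-count floor allowed between 0.142 and 0.147 CPM, and the TAC mean was 0.148 ± 0.162 CPM (SD, n = 4), so no fold was taken. When edgeR was fitted with no filter on low counts, the adjusted p for Il6 was 0.153 with AAV9-GFP, 0.476 with AAV9-Cardinal and 0.059 averaged over both vectors.

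Il11 (ENSMUSG00000004371, chr7:4772373-4782859, minus strand), a gp130 cytokine known from fibroblasts, also gathered 31 counts. In AAV9-GFP sham replicates 1 to 4 it had 4, 0, 0 and 0 counts, and in AAV9-GFP TAC replicates 1, 3, 4 and 7 it had 0, 4, 5 and 6. With AAV9-Cardinal 3 of 4 hearts were at 0 in either surgery, with 4 counts in sham replicate 3 and 8 counts in TAC replicate 5. Without the filter its adjusted p after TAC was 0.578 with AAV9-GFP and 0.938 with AAV9-Cardinal. Of its 50-base stretches 3.13% also lay in other genes.

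Lif (ENSMUSG00000034394, chr11:4257557-4272514, plus strand), leukemia inhibitory factor, had 108 counts in all and was seen in 15 of 16 hearts. Its counts were 0, 7, 4 and 8 in AAV9-GFP sham hearts and 8, 8, 9 and 11 in AAV9-GFP TAC hearts. They were 8, 8, 8 and 5 in AAV9-Cardinal sham hearts and 8, 4, 4 and 8 in AAV9-Cardinal TAC hearts. The groups overlapped with either virus. At this depth no change was detectable, with 95% intervals of the log2 fold change in the fit without the filter that ran from -0.30 to 1.76 with AAV9-GFP and from -1.41 to 0.64 with AAV9-Cardinal (adjusted p 0.49 and 0.82).

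Clcf1 (ENSMUSG00000040663, chr19:4214238-4223490, plus strand), cardiotrophin-like cytokine factor, a gp130 ligand, was the only ligand of the 4 that could be tested. In AAV9-GFP sham replicates 1 to 4 it stood at 0.8505, 1.2, 0.5385 and 1.319 CPM, and in AAV9-GFP TAC replicates 1, 3, 4 and 7 at 1.46, 0.796, 0.481 and 0.825 CPM. The highest and the lowest of these 8 hearts were both TAC hearts. With AAV9-Cardinal it stood at 1.99, 1.16, 1.87 and 1.49 CPM in sham and at 0.840, 0.845, 1.44 and 1.56 CPM in TAC hearts. Here the 2 lowest hearts were TAC hearts, with the others overlapping. The log2 fold change after TAC was -0.13 (SE 0.345, adjusted p 0.855) with AAV9-GFP and -0.48 (SE 0.319, adjusted p 0.424) with AAV9-Cardinal, and the first of these turned to 0.027 when counts were scaled by library totals alone. In sham hearts Clcf1 was 0.74 higher on the log2 scale with AAV9-Cardinal than with AAV9-GFP (SE 0.328, 95% interval 0.038 to 1.44), which did not pass after adjustment (adjusted p 1). A second gene, AC109138.7, shares 8.17% of its exon bases on the same strand, and 6.77% of its 50-base stretches lay in other genes, so reads could have been split between them.

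The IL-6 family receptor chains Il6st and Osmr had the lowest coefficients of variation of the 9 genes. These values include counting error, which is larger in genes with fewer counts. Il6st (ENSMUSG00000021756, chr13:112464070-112510086, plus strand), the gp130 chain that all IL-6 family ligands in this group use, stood at 123.6, 125.3, 122.9 and 127.5 CPM in AAV9-GFP sham hearts (124.8 ± 2.02, SD, n = 4) and at 123.3, 134.5, 121.9 and 137.8 CPM in AAV9-GFP TAC replicates 1, 3, 4 and 7. In AAV9-Cardinal hearts it stood at 123.4, 125.5, 132.5 and 137.2 CPM after sham surgery and at 131.8, 125.6, 132.0 and 132.1 CPM after TAC. The groups overlapped throughout and its coefficient of variation over the 16 hearts was 4.18%, the lowest of the 9 genes. The log2 fold change after TAC was 0.052 (SE 0.0473, adjusted p 0.514) with AAV9-GFP and 0.0083 (SE 0.0473, adjusted p 0.952) with AAV9-Cardinal. The 95% intervals allowed a fold between 0.967 and 1.11 with AAV9-GFP and between 0.938 and 1.08 with AAV9-Cardinal.

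The call of Il6st depended on the scaling. Library totals without the TMM composition factors, an alternative added after the data had been seen, gave a log2 fold change of 0.21 in AAV9-GFP hearts (adjusted p 0.00448), but they also moved the median of all tested genes from 0.005 to 0.164, and the calls among all genes from 1431 higher of 2934 to 4220 higher of 4901. Raw counts of Il6st were 2511 to 2616 in AAV9-GFP sham hearts and 2790 to 3209 in AAV9-GFP TAC hearts, which did not overlap, while TMM factors were 0.940 to 0.977 in the former and 1.05 to 1.09 in the latter.

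Osmr (ENSMUSG00000022146, chr15:6813577-6874969, minus strand), the chain that pairs with gp130 to bind oncostatin M, had the smallest adjusted p of the 6 tested genes, 0.251 averaged over both vectors. It stood at 21.97, 19.48, 24.62 and 25.64 CPM in AAV9-GFP sham and 21.3, 23.5, 28.7 and 24.8 CPM in AAV9-GFP TAC hearts. With AAV9-Cardinal it stood at 18.01, 18.66, 26.60 and 28.98 CPM in sham and at 24.4, 28.9, 31.7 and 25.2 CPM in TAC hearts. The first 2 of these sham hearts lay below all 4 TAC hearts and the other two within their range. The log2 fold change was 0.10 (SE 0.150, adjusted p 0.722) with AAV9-GFP and 0.26 (SE 0.150, adjusted p 0.339) with AAV9-Cardinal. Averaged over both vectors it was 0.18 (SE 0.106, 95% interval -0.046 to 0.41, adjusted p 0.251). With library totals alone it was 0.28 (adjusted p 0.0354), where the median of all genes moved from 0.0042 to 0.101.

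Socs3 (ENSMUSG00000053113, chr11:117966079-117970047, minus strand), whose mRNA is a common readout of gp130 and STAT3 activity, varied widely between hearts of a group. It stood at 3.497, 3.407, 4.41 and 5.18 CPM in AAV9-GFP sham and 2.83, 3.98, 4.90 and 5.39 CPM in AAV9-GFP TAC hearts, ranges that overlap widely. In AAV9-Cardinal sham hearts it stood at 1.72, 1.95, 4.51 and 7.71 CPM, so both its lowest and its highest heart of the series were in this group, the highest being the mouse with the lowest total. AAV9-Cardinal TAC hearts lay at 3.71, 4.79, 7.07 and 5.47 CPM. The log2 fold change after TAC was 0.052 (SE 0.37, adjusted p 0.951) with AAV9-GFP and 0.45 (SE 0.372, adjusted p 0.544) with AAV9-Cardinal, and without AAV9-Cardinal sham replicate 4 the latter became 0.95 with an adjusted p of 0.115. With any other of these mice left out it lay between 0.19 and 0.59, and was 0.19 without sham replicate 1, 0.21 without sham replicate 2 and 0.27 without TAC replicate 5. The 95% interval with AAV9-GFP ran from 0.600-fold to 1.79-fold. The STAT motif of its promoter, shown above, was not tested against these values.

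Neither gene of the IL-33 arm passed the test. Il33 (ENSMUSG00000024810, chr19:29925114-29960718, plus strand) stood at 4.205, 3.503, 2.301 and 3.760 CPM in AAV9-GFP sham hearts and at 3.42, 2.52, 1.88 and 4.52 CPM in AAV9-GFP TAC hearts. With AAV9-Cardinal it stood at 3.02, 2.79, 1.92 and 2.20 CPM in sham and at 2.52, 3.85, 4.56 and 2.90 CPM in TAC hearts. TAC hearts thus held the lowest and highest value with AAV9-GFP, and 2 TAC hearts lay above all sham hearts with AAV9-Cardinal. The log2 fold change was -0.16 (SE 0.261, adjusted p 0.748) with AAV9-GFP and 0.47 (SE 0.269, adjusted p 0.338) with AAV9-Cardinal. The difference between these responses was 0.63 (SE 0.374, 95% interval -0.17 to 1.42), which was the largest of the 6 genes but did not pass the test (adjusted p 0.588).

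Il1rl1 (ENSMUSG00000026069, chr1:40429570-40465415, plus strand), which encodes both membrane ST2 and the soluble form that acts as a decoy for IL-33, had 11 to 24 counts in every heart. It stood at 0.756, 0.624, 1.18 and 0.732 CPM in AAV9-GFP sham and 1.03, 0.545, 0.656 and 0.825 CPM in AAV9-GFP TAC hearts. With AAV9-Cardinal it stood at 0.496, 0.743, 0.960 and 0.908 CPM in sham and 0.752, 0.845, 0.651 and 0.598 CPM in TAC hearts. All 4 groups overlapped. Its log2 fold change was -0.10 (SE 0.254, adjusted p 0.842) with AAV9-GFP, which turned to 0.054 with library totals alone, and -0.11 (SE 0.263, adjusted p 0.88) with AAV9-Cardinal. Counts per gene do not separate the membrane form from the soluble one. The 5 mast cell markers (Cpa3, Kit, Mcpt4, Tpsb2 and Cma1) summed to 5.06 to 9.33 CPM in AAV9-GFP sham and 6.25 to 9.64 CPM in AAV9-GFP TAC hearts, and T cell markers reached at most 0.331 CPM.

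**Figure D3:**
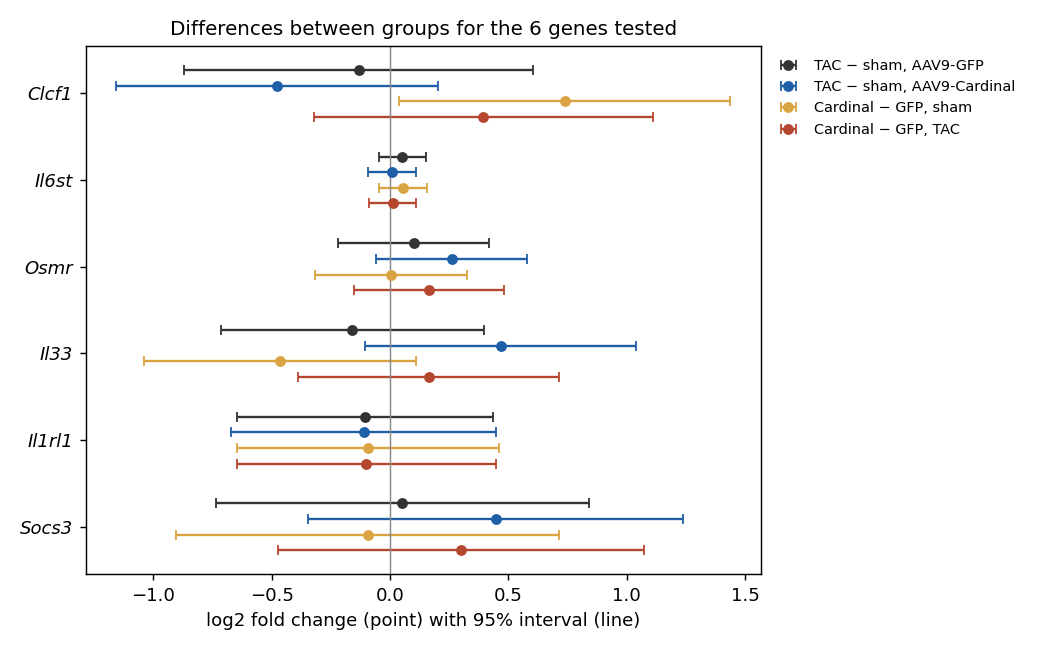
Log2 fold change with its 95% interval for the 6 tested genes in 4 comparisons (TAC minus sham with each virus, and AAV9-Cardinal minus AAV9-GFP after each surgery), with 0 marked by a vertical line. The intervals of Il6st are the narrowest (-0.049 to 0.15 for TAC with AAV9-GFP), those of Clcf1, Il33 and Socs3 are wider, and among those drawn only the interval of Clcf1 between the vectors in sham hearts (0.038 to 1.44) leaves out 0.

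None of the 6 tested genes passed for a difference between the vectors. Cardinal itself (Gm12295) was called in TAC hearts (log2 fold change 2.96, SE 0.4885, adjusted p 0.0392). In sham hearts Cardinal was not called (2.70, SE 0.494, adjusted p 0.35), although its levels with each virus did not overlap. A missing call between the vectors in sham hearts thus does not show that a gene was unchanged. In TAC hearts the log2 fold changes of AAV9-Cardinal against AAV9-GFP lay between -0.10 for Il1rl1 and 0.39 for Clcf1 (SE 0.257 and 0.336), with adjusted p of 0.645 or more for all 6. For Il6st the value was 0.011 with an interval of -0.090 to 0.11, and it turned to -0.080 with library totals alone, where the median of all genes moved to -0.098. The interval for Osmr was -0.15 to 0.48 around 0.16. In sham hearts Il33 was 0.46 lower on the log2 scale (SE 0.27, 95% interval -1.04 to 0.11, adjusted p 1). The other values in sham hearts lay between -0.095 for Socs3 and 0.055 for Il6st, Clcf1 aside.

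Other genes of the same pathways did pass. Lists of ligands, receptors, transducers, inhibitors and targets held 73 further genes, of which 52 were tested. The lists were written with earlier results of these data known, so their shares are a description and no test of the pathways. After TAC, 15 of the 52 had passed with AAV9-GFP (9 higher, 6 lower) and 12 with AAV9-Cardinal (9 higher, 3 lower), which is 28.8% and 23.1% beside 17.4% and 6.48% of all genes. Their median log2 fold change was 0.083 and 0.053, beside 0.005 and -0.0005 over all tested genes. The test for a change of at least 1.2-fold called 5 with AAV9-GFP and 0 with AAV9-Cardinal. With 1 mouse left out the count with AAV9-Cardinal lay between 3 and 14, being 3 without sham replicate 2, 4 without TAC replicate 5, 6 without TAC replicate 6 and 7 without sham replicate 1 or 4. The share of all genes called in the 1.2-fold test or with a mouse left out is not given here. These counts thus cannot be set against it. Averaged over both vectors 23 of the 52 were called, 15 higher and 8 lower (44.2%, beside 23.1% of all tested genes). The 15 include Il1b, which passed the filter on low counts through TAC hearts, as given below. With library totals alone the split in AAV9-GFP hearts was 21 higher of 23, beside 4220 higher of 4901 among all tested genes. For 0 of the 52 did edgeR call a difference between the vectors in TAC hearts, in sham hearts or in the TAC response. At an unadjusted p under 0.05 there were 10, 1 and 6, beside 15%, 2.59% and 10.2% of all tested genes. DESeq2 called 1, 0 and 0. The 1 was Fgl2, named after its value was seen, at a log2 fold change of -0.48 with AAV9-Cardinal in TAC hearts (adjusted p 0.0101 in DESeq2 and 0.0969 in edgeR).

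Among the ligands outside the 9 genes, Ctf1 changed. Ctf1 stood at 4.205, 3.934, 5.434 and 4.053 CPM in AAV9-GFP sham and at 2.911, 1.970, 2.578 and 2.129 CPM in AAV9-GFP TAC hearts. With AAV9-Cardinal Ctf1 stood at 4.288, 5.293, 3.840 and 4.019 CPM in sham and at 3.094, 2.629, 2.838 and 3.358 CPM in TAC hearts. Ctf1, cardiotrophin-1, a gp130 ligand made by cardiomyocytes, fell from 4.41 ± 0.694 to 2.40 ± 0.429 CPM (SD, n = 4) with AAV9-GFP (log2 fold change -0.88, SE 0.147, adjusted p 0.000921) and from 4.36 ± 0.649 to 2.98 ± 0.316 CPM (SD, n = 4) with AAV9-Cardinal (-0.55, SE 0.146, adjusted p 0.0375). All TAC hearts lay below all sham hearts with each virus. With AAV9-Cardinal the call of Ctf1 held in 6 of 10 alternatives and in 2 of 8 cases with a single mouse left out. Other listed ligands, among them Osm with 48 counts and Cntf with 26 over the 16 hearts, were too low to test.

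**Figure D4:**
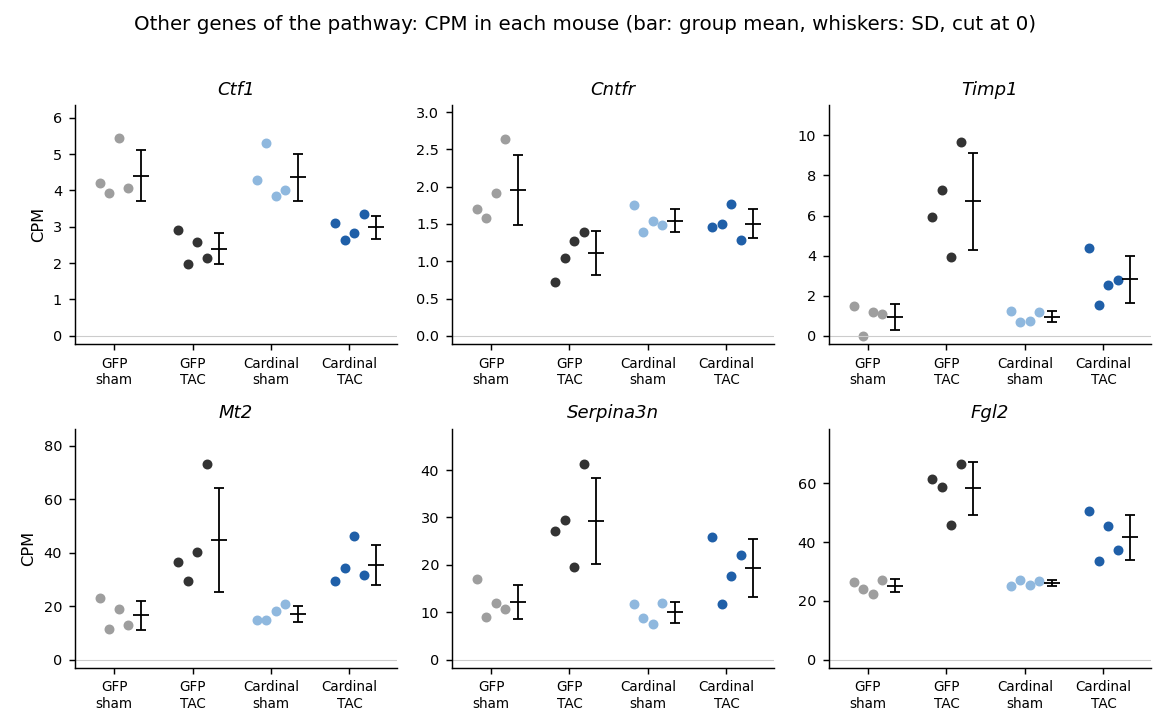
CPM in each mouse for 6 further genes of the IL-6 pathway, with a panel and a linear axis for each gene, a point for each mouse, and the mean and SD of each group of 4 beside the points (whiskers cut at 0). Mt2, Fgl2 and Timp1 are higher in every TAC heart than in any sham heart (Timp1 passed with AAV9-GFP only), and Ctf1 is lower in every TAC heart.

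Of the 8 tested receptor chains of the family, Il6st and Osmr among them, 2 were lower in AAV9-GFP TAC hearts (Cntfr and Il11ra1). This is 25%, beside 17.4% of all tested genes. In AAV9-Cardinal hearts 0 were called, beside 6.48% of all tested genes, and DESeq2 called 0. An unadjusted p under 0.05 was held by 0 of them, beside 21.8% of all tested genes. Cntfr, the receptor chain for ciliary neurotrophic factor, fell from 1.96 ± 0.473 to 1.11 ± 0.290 CPM (SD, n = 4; log2 fold change -0.82, SE 0.197, adjusted p 0.00982). In AAV9-Cardinal hearts it stood at 1.545 ± 0.1555 and 1.504 ± 0.1986 CPM (SD, n = 4). With library totals alone 3 receptor chains were called in AAV9-GFP hearts, 2 of them higher. That setting called 4901 of the 16857 tested genes there, 4220 of them higher. The median log2 fold change of all tested genes moved to 0.164. Of 9 transducers, 4 were called with each virus (44.4%, beside the same 17.4% and 6.48%), 2 higher and 2 lower. With library totals alone 2 transducers were called in AAV9-GFP hearts, both higher, beside the same 4220 higher of 4901 among all tested genes. Stat3, the transcription factor that gp130 activates, rose by 0.39 on the log2 scale (SE 0.0722, adjusted p 0.00186) with AAV9-GFP and by 0.27 (SE 0.0724, adjusted p 0.038) with AAV9-Cardinal, the latter value chosen after it was seen. Ptpn11, a phosphatase that binds gp130, rose by 0.37 on the log2 scale with AAV9-Cardinal (SE 0.0642, adjusted p 0.00526), from between 171.9 and 205.4 to between 224.1 and 246.7 CPM. With AAV9-GFP it rose by 0.29 (SE 0.0641, adjusted p 0.00586). Stat5a, a related factor used more by other cytokines, fell by 0.57 on the log2 scale with AAV9-Cardinal (SE 0.128, adjusted p 0.018). With AAV9-GFP its mean was 16.68 CPM in sham and 14.21 CPM in TAC hearts. Of the 8 feedback inhibitors, Socs3 among them, 1 was called with each virus (12.5%, beside 17.4% and 6.48% of all tested genes). With AAV9-GFP this was Pias1, named after its value was seen, which fell by 0.31 on the log2 scale (SE 0.0671, adjusted p 0.00475), and with AAV9-Cardinal this was Socs2, which rose from 28.35 ± 3.45 to 39.1 ± 1.65 CPM (SD, n = 4). The mean of Socs2 with AAV9-GFP was 31.46 CPM in sham and 37.33 CPM in TAC hearts, which did not pass. With library totals alone 3 feedback inhibitors were called in AAV9-GFP hearts, all higher, beside the same 4220 higher of 4901 among all tested genes. The AAV9-Cardinal calls of Ptpn11, Stat5a and Socs2 held in 8 of 10 alternatives each and were lost in the test for at least 1.2-fold. With a mouse left out that of Stat5a held in 5 of 8 cases.

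STAT3 target genes that passed were all higher after TAC. Of the 16 tested, 6 were higher and 0 lower with AAV9-GFP, 5 higher and 0 lower with AAV9-Cardinal, and 8 higher and 0 lower averaged over both, with a median log2 fold change of 0.413, 0.411 and 0.469 beside 0.005, -0.0005 and 0.0042 over all genes. The shares called were 37.5%, 31.2% and 50%, beside 17.4%, 6.48% and 23.1% of all tested genes. As the list was written with earlier results of these data known, these values describe it and do not test it. Timp1, an inhibitor of matrix metalloproteases, rose from 0.928 ± 0.641 to 6.72 ± 2.42 CPM (SD, n = 4) with AAV9-GFP (log2 fold change 2.85, SE 0.482, adjusted p 0.000989). The call held in 8 of 8 cases with a single mouse left out. Timp1 had 31, 0, 24 and 22 counts in AAV9-GFP sham replicates 1 to 4, so a heart at 0 entered the sham mean. With AAV9-Cardinal it stood at 0.9505 ± 0.281 and 2.82 ± 1.17 CPM (SD, n = 4), which did not pass (adjusted p 0.0814). The difference between these 2 responses of Timp1 was -1.27 (SE 0.725, adjusted p 0.569).

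The metallothionein Mt2, which binds zinc and copper, rose from 16.6 ± 5.53 to 44.8 ± 19.4 CPM (SD, n = 4) with AAV9-GFP and from 17.2 ± 2.97 to 35.5 ± 7.53 CPM (SD, n = 4) with AAV9-Cardinal. The acute-phase protease inhibitor Serpina3n rose by 1.27 (SE 0.266) and 0.95 (SE 0.272) on the log2 scale. Fgl2, a fibrinogen-like protein, rose by 1.22 (SE 0.125) and 0.67 (SE 0.125), with every TAC heart above every sham heart. The transcription factors Junb (log2 fold change 1.10, SE 0.328, adjusted p 0.0305) and Myc (0.88, SE 0.286, adjusted p 0.0462) passed with AAV9-GFP, and the siderophore-binding protein Lcn2 (1.10, SE 0.251, adjusted p 0.0199) and Mt1 (0.75, SE 0.198, adjusted p 0.0383) with AAV9-Cardinal. With the other virus the group means moved the same way without passing. They went from 9.63 to 14.28 CPM for Junb and 2.35 to 3.33 CPM for Myc with AAV9-Cardinal. With AAV9-GFP they went from 2.61 to 4.18 CPM for Lcn2 and 102.4 to 140.3 CPM for Mt1. For 0 of the STAT3 target genes did edgeR call a difference in the TAC response between the vectors. With single mice left out, the calls with AAV9-GFP held in 4 of 8 cases for Junb and 1 of 8 for Myc, and those with AAV9-Cardinal in 1 of 8 for Mt2 and Serpina3n and 2 of 8 for Mt1. Several of these genes are also known to be induced by other signals.

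Of the genes on the IL-33 and IL-1 side, Il18bp, the secreted binding protein that neutralizes interleukin-18, rose by 0.46 (SE 0.118, adjusted p 0.0143) with AAV9-GFP and by 0.56 (SE 0.121, adjusted p 0.0154) with AAV9-Cardinal on the log2 scale. Il1b, interleukin-1 beta, had 0, 0, 0 and 7 counts in AAV9-GFP sham, 5, 10, 7 and 23 in AAV9-GFP TAC, 3, 0, 0 and 0 in AAV9-Cardinal sham and 0, 21, 13 and 11 in AAV9-Cardinal TAC hearts. It reached 10 counts in TAC hearts alone and so passed the filter through them, and its fitted fold change depends on the prior count and is not given. It was called averaged over both vectors (adjusted p 0.0152), a call that held in 6 of 8 alternatives (adjusted p up to 0.222), and with neither virus alone (adjusted p 0.138 with AAV9-GFP and 0.104 with AAV9-Cardinal). As Il1b entered the test through the TAC hearts, this call describes its counts and is no separate evidence of a rise. Of the 4 tested receptors of the family, 0 were called with either virus by edgeR or DESeq2 (at an unadjusted p under 0.05 there were 1 and 0). Of the 8 adaptors downstream of ST2, 0 were called with either virus by both tools (1 and 2 at an unadjusted p under 0.05). Of all tested genes edgeR called 17.4% with AAV9-GFP and 6.48% with AAV9-Cardinal, and 29.9% and 21.8% had an unadjusted p under 0.05. Averaged over both vectors edgeR called 2 of the 8 adaptors (25%, beside 23.1% of all tested genes) and DESeq2 called 1. The 2 in edgeR, named after their values were seen, were the adaptor Myd88, 0.24 higher on the log2 scale in TAC hearts (SE 0.0691, adjusted p 0.0221), and Traf6, a ubiquitin ligase downstream of it, which fell by 0.14 (SE 0.0457, adjusted p 0.0432). With library totals alone 2 of the 4 receptors and 4 of the 8 adaptors were called higher in AAV9-GFP hearts. That setting called 4220 of all 16857 tested genes higher there and moved their median log2 fold change to 0.164. The 6 products of IL-33-responsive lymphoid and mast cells were all below the filter, with 44 counts for Gata3, 37 for Il4, 6 for Il5, 5 for Areg and 0 for Il13 and Il9 over the 16 hearts.

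Some cell type markers moved with TAC beside these genes. Of all tested genes 8.49% were called higher and 8.92% lower with AAV9-GFP, and 3.10% and 3.38% with AAV9-Cardinal. In AAV9-GFP hearts 3 of 6 fibroblast markers were higher, and their summed level was 425 to 486 CPM in sham and 578 to 715 CPM in TAC hearts. In AAV9-Cardinal hearts the sums were 412 to 459 and 416 to 626 CPM, in the same order, and 0 of the 6 were called. Activated fibroblast markers were higher for 3 of 4 tested with AAV9-GFP and 1 of 4 with AAV9-Cardinal. Their sums with AAV9-GFP overlapped, at 71.73 to 252.8 CPM in sham and 209 to 310.9 CPM in TAC hearts. Of 5 cardiomyocyte markers 4 were lower with AAV9-GFP, while with AAV9-Cardinal 1 was higher and 1 lower. Of 5 endothelial markers 1 and of 5 mural markers 2 were higher with AAV9-GFP, and 0 of either were called with AAV9-Cardinal. Of 6 macrophage markers 1 was higher with AAV9-GFP, with sums of 52.2 to 63.1 CPM in sham and 63.3 to 79.9 CPM in TAC hearts. With AAV9-Cardinal 0 of the 6 were called, with sums of 51.15 to 65.77 and 49.36 to 68.12 CPM. In RNA of whole tissue, fewer cells of a type and less RNA per cell cannot be told apart, and the part of these markers in the values of Timp1, Ctf1 and the 9 genes was not tested.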

How the data were processed

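The 16 columns of the table were matched to the mice by the sample titles. The deposited values are the authors' unnormalized read counts, 1 row for each Ensembl gene. The submitters' processing notes name FastQC, HISAT2 2.1.0, edgeR 3.26.1 and GRCm38, without their roles. The counting program, annotation, use of strand and treatment of reads with several matches are not given in the sources used here, and no column was left unused.

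Genes were named with GENCODE M21 on GRCm38 (55480 of 55573). The counts were tested with edgeR 4.0.16 (R 4.3.3). Low genes were removed by filterByExpr, which kept 16857, totals were scaled by TMM, and 1 quasi-likelihood model covered the 16 mice, from which each comparison was drawn as a contrast. Calls required p under 0.05 after Benjamini-Hochberg adjustment over all tested genes, and SEs and 95% intervals came from that fit. CPM values used TMM-scaled library totals, and CPM per kb also used the merged exon length of each gene. The common coefficient of variation between mice of a group was 0.128. Mice of the same group differed by 5.10 to 14.9 times the sampling noise (chi-square per degree of freedom, 24 pairs), so all were kept. Whether the spread between mice is wholly biological cannot be read from the labels.

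The 9 genes and the 9 pathway lists were chosen with earlier results of these data known. Beside the 9, the text names for each comparison up to 10 listed genes past the threshold with the largest absolute log2 fold change, and any other gene is said to be chosen after its values were seen. 1 listed gene is not reported here and was left out of the lists. Promoters came from RefSeq. Alternatives were DESeq2 1.42.0, RLE size factors, other filters, a robust spread, mitochondrial genes left out, only the groups compared, a replicate block, a test for at least 1.2-fold, and each mouse left out. Library totals without composition factors, and all alternatives for the counts of other pathway genes, were chosen once results had been seen. The scripts were tested on simulated counts. Figures were made with matplotlib 3.10.9 in Python 3.11.15.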

Additional observations from a re-analysis of the deposited data

Results flagged for a closer look

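In groups of 4 mice, a heart was singled out where its gap to the nearest other was a large part of the range of the group (Dixon's test). Of 104 groups tested 11 were singled out, and chance, at 1 in 20, gives about 5.2 for continuous values. Where all other hearts of a group are at 0, the gap fills the range whatever its size. The 5.2 does not hold for such groups, so no excess over chance can be read here. In 6 of the 11 a single heart lay above 0 and the other 3 of its group were at 0. For Il6 this was AAV9-Cardinal sham replicate 4 with 0.130 CPM. For Il11 it was AAV9-GFP sham replicate 1 with 0.189 CPM, AAV9-Cardinal sham replicate 3 with 0.192 CPM and AAV9-Cardinal TAC replicate 5 with 0.372 CPM. Il1b reached 0.342 CPM in AAV9-GFP sham replicate 4 and 0.135 CPM in AAV9-Cardinal sham replicate 1.

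Il6st measured 125.6 CPM in AAV9-Cardinal TAC replicate 4 against 131.8 to 132.1 CPM in the other 3. Myc measured 3.37 CPM in AAV9-Cardinal sham replicate 4 against 1.95 to 2.06 CPM, and Stat5a 14.9 CPM in AAV9-Cardinal TAC replicate 1 against 12.2 to 12.5 CPM. Ptpn11 measured 194.1 CPM in AAV9-GFP sham replicate 4, and the lowest of the other 3 hearts 183.7 CPM. AAV9-Cardinal sham replicate 4 also had the lowest total, 16441997 counts against 21603910 to 21786630.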

How the results depend on the processing

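Over the alternatives, the 6 tested genes gave 726 log2 fold changes beside the reported ones, of which 49 changed sign and 3 passed the threshold, all 3 with library totals alone. That setting called 1 of the 9 genes in AAV9-GFP hearts (Il6st) and 2 averaged over both vectors (Il6st at 0.13 and Osmr at 0.28), and gave 0.027 for Clcf1 and 0.054 for Il1rl1 in AAV9-GFP hearts and -0.080 for Il6st between the vectors in TAC hearts. Of the 16857 tested genes it called 4901 in AAV9-GFP hearts and 5244 averaged over both vectors. With each mouse left out in turn (384 values, 35 changed sign), the smallest adjusted p was 0.106. The cause was not tested.

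Replicate numbers did not meet the criterion for pairing, a correlation over 0.1 in every same-numbered pair (16 pairs, r from -0.040 to 0.211). The 4 pairs over 0.1 were all of replicate 1 mice. In the other groups that hold its number, a mouse correlated best with its own number in 14 of 32 cases (9 of 12 for replicate 1), a hint from the data and not the design. Osmr and Socs3 were lower in replicate 1 than in replicate 4 in all 4 groups, and whether same-numbered mice shared a batch is not given in the labels. With a replicate block, Socs3 moved to 0.12 in AAV9-Cardinal hearts, -0.26 in AAV9-GFP hearts and -0.070 averaged, Il33 to -0.041 averaged, Il6st to -0.0019 and Il1rl1 to 0.061 in AAV9-Cardinal hearts, Clcf1 to -0.18 and Il1rl1 to 0.16 between the vectors in TAC hearts, Osmr to -0.010 between them in sham hearts, and Il1rl1 to 0.25 for the difference in response. The block called 0 other pathway genes in AAV9-Cardinal hearts in place of 12, so the calls of Ptpn11, Stat5a and Socs2 were lost there. With no filter, Osmr was -0.0030 in sham hearts between the vectors, Il1rl1 0.0052 for the difference, and 7 pathway genes were called in AAV9-Cardinal hearts in place of 12. The test for at least 1.2-fold called 5, 0 and 7 pathway genes in place of 15, 12 and 23 (AAV9-GFP, AAV9-Cardinal, averaged). Library totals alone called 23 in AAV9-GFP hearts, beside 4901 of the 16857 tested genes. The share of all genes called is not given for the block, no filter, the 1.2-fold test or mice left out. DESeq2 called 1 in place of 0 between the vectors in TAC hearts.

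With mice left out, other pathway genes called ranged from 3 to 14 in AAV9-Cardinal hearts (3 without AAV9-Cardinal sham replicate 2, 4 without AAV9-Cardinal TAC replicate 5, 6 without AAV9-Cardinal TAC replicate 6, 7 without AAV9-Cardinal sham replicate 1 or 4) and from 0 to 2 between the vectors in TAC hearts (Fgl2 without AAV9-GFP TAC replicate 4, Fgl2 and Ptpn6 without AAV9-Cardinal TAC replicate 1, both named after their values were seen). Log2 fold changes in AAV9-GFP hearts ranged from -0.47 to 0.072 for Clcf1, -0.40 to 0.018 for Il33, -0.28 to 0.11 for Il1rl1 and -0.074 to 0.21 for Socs3. In AAV9-Cardinal hearts they ranged from -0.015 to 0.036 for Il6st and -0.28 to 0.017 for Il1rl1, and averaged from -0.19 to 0.0012 for Il1rl1. Between the vectors in TAC hearts they ranged from -0.014 to 0.044 for Il6st, -0.0093 to 0.41 for Il33 and -0.23 to 0.077 for Il1rl1. In sham hearts they ranged from -0.12 to 0.11 for Osmr, -0.22 to 0.13 for Il1rl1 and -0.60 to 0.17 for Socs3, and for the difference in response from -0.23 to 0.17 for Il1rl1. The named calls of Timp1, Mt2, Serpina3n, Fgl2 and Ctf1 in AAV9-GFP hearts held in all 10 alternatives and with every mouse left out. Junb held in 6 of 10 and 4 of 8, and Myc in 6 of 10 and 1 of 8. In AAV9-Cardinal hearts Mt2 and Serpina3n held in 1 of 8 cases with a mouse left out, Mt1 and Ctf1 in 2 of 8.

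Depth limits Il6, Il11 and Lif, with at most 11 counts in a heart, and Il1rl1, with at most 24.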
